A study of Homo sapiens with 9 samples.

Results

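Wild-type HER2 was compared with control in cells of MCF10A, a human breast epithelial line that is established in culture and does not form tumours. Arrays were chosen by their titles, which gave 3 arrays of cells carrying wild-type HER2 (WT-HER2) and 3 of control cells, 6 of the 9 arrays in the series. The remaining 3 arrays, of cells with the Delta-HER2 splice variant, entered the statistical fit so that all groups shared one estimate of the spread, and their own changes are not described. The transgene label of the control cells reads control, the source label calls them parental, and the design text speaks of an empty vector, so whether they carried a vector cannot be settled here. The labels name neither the promoter that drives the transgene, nor whether a line was 1 clone or a pool, nor whether the 3 samples of a group came from cultures kept apart. The p-values therefore measure the spread between these samples, which may be technical. All cells were grown with horse serum, epidermal growth factor (EGF), hydrocortisone, cholera toxin and insulin, and then spent 16 hours without serum or added growth factor, in medium with antibiotics alone.

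HER2, the product of ERBB2, is a receptor tyrosine kinase of the EGF receptor family that binds no known ligand of its own and signals in dimers with EGFR, HER3 or HER4. Its signal runs through the RAS-ERK and PI3K-AKT cascades, and its amplification defines a class of breast cancers. MCF10A cells resemble basal mammary epithelium: they express basal keratins, lay down basement membrane and can switch on genes of squamous differentiation.

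Values are log2 levels of Affymetrix whole-transcript arrays, 1 transcript cluster per gene and 18404 genes in all, and a log2 difference of 1 is a doubling on the array's scale. Where a gene is said to rise or fall by a plain number, that number is a log2 difference, and the values listed for arrays are log2 levels of replicates 1, 2 and 3 in that order. Array medians over all transcript clusters ranged from 4.06 to 4.18 in the 6 arrays. A level under 3.18, the 0.95 quantile of 340 olfactory receptor genes that epithelium is not known to express, is called under the background bound. The main axis of variation between the 6 arrays, with 53.3% of the variance, did not follow the groups. It set WT-HER2 replicate 3 (score −32.53) and control replicate 1 (−10.35) apart from control replicates 2 and 3 (16.58 and 18.20) and WT-HER2 replicates 1 and 2 (4.65 and 3.45). The second axis, with 22.2%, separated the groups. Counts of gene lists with several calls are therefore also given without control replicate 1 and WT-HER2 replicate 3. Epithelial markers were high in all 6 arrays: the mean of EPCAM, CDH1, KRT5, KRT14 and KRT18 was 9.74 to 9.81 in control and 9.62 to 9.69 in WT-HER2 arrays. KRT17 and TP63, also chosen as epithelial markers, had no transcript cluster of their own.

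ERBB2 itself (transcript cluster 8006906, chromosome 17) was the check on the labels. Its level was 6.97, 6.91 and 7.10 in the 3 control arrays and 7.98 in each of the 3 WT-HER2 arrays. The groups did not overlap, and ERBB2 rose 1.98-fold (0.99 log2, SE 0.068, adjusted p = 0.000199). The 3 WT-HER2 values were identical as deposited, which made the spread for this gene small, and the same was true in one of the groups for 518 of the 18404 genes. The other receptors of the family did not pass the test. EGFR stood at 8.98, 9.22 and 9.25 in control and 8.96, 9.05 and 8.96 in WT-HER2 arrays (difference −0.16, adjusted p = 0.537). ERBB3, which encodes the kinase-impaired partner HER3, was lower in each WT-HER2 array than in any control array, at 6.33, 6.28 and 6.47 against 6.02, 6.12 and 6.04, but missed the threshold (difference −0.30, adjusted p = 0.0902). ERBB4 lay under the background bound in all 6 arrays. Of 10 EGF-family ligands measured, which activate the partner receptors, none passed the test with limma, 3 were under the bound in both groups, and at an unadjusted p below 0.05 there were 2; without control replicate 1 and WT-HER2 replicate 3, 1 passed, as lower, EPGN (adjusted p = 0.049). The widest differences among them were EPGN at −0.94 (adjusted p = 0.104) and EREG at 0.57 (adjusted p = 0.126). AREG, another ligand of the list, had no transcript cluster of its own, so the family was not measured in full.

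Across the array, 309 of 18404 genes (1.68%) passed limma's test at adjusted p below 0.05. Of these, 143 were higher with WT-HER2 (0.777% of genes tested) and 166 lower (0.902%). All 309 had groups that did not overlap, a pattern shown by 14% of all genes. Most changes were modest: the median size was 0.59 log2 among the called genes, against 0.09 among all genes, and 47 genes changed at least 2-fold, 21 upward and 26 downward. The largest decreases were of KRT10, CRYAB, UBD and PI3, and the largest increases of CXCL10, CPM, OASL and DEPP1. Of the 309 calls, 104 held whichever of the 6 arrays was left out and 51 held in none of those 6 fits. Without control replicate 1 and WT-HER2 replicate 3 the test called 294 genes, 138 higher (0.75%) and 156 lower (0.848%). All 309 genes then kept their sign and 215 passed again.

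**Figure D1:**
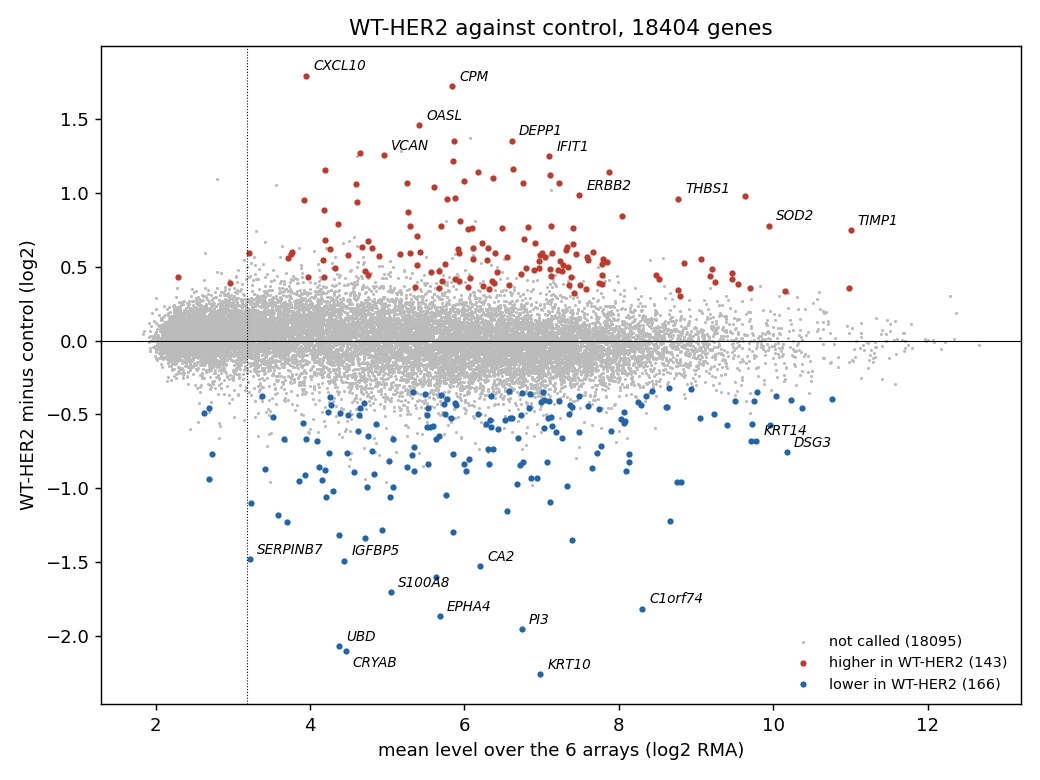
Mean log2 level of each gene over the 6 arrays (x axis) against its log2 difference between WT-HER2 and control (y axis), 1 point per gene, with the 143 genes that rose in red and the 166 that fell in blue; the dotted line is the background bound. CXCL10 and CPM lie highest and KRT10 and CRYAB lowest, and most calls lie to the right of the bound.

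Of the 39 gene lists described here, that of interferon-induced effectors held the most increases in the fit of all arrays. Interferons are secreted antiviral signals, and RNA sensors such as RIG-I start their production. Bound to their receptors, they activate STAT and IRF factors, which bind a short element, the interferon-stimulated response element, before the genes they switch on. The core of that element, searched on both strands as GAAA, any 2 bases and GAAA again, was present in 24 of the 36 promoter windows found for the list of interferon-induced effectors (66.7%), against 996 of all 27305 windows (3.65%) and 433 of the 14228 windows of genes tested here (3.04%). A window covers 250 bases before to 50 bases after the gene start in RefSeq's GRCh38.p14 annotation. These are the 170 bases before the start of 4 effectors that rose, shown because they carry the element at differing distances, 5′ to 3′ on the gene's strand and with the matches on either strand in capitals.
IFIT3, chr10:89327827-89327996, plus strand: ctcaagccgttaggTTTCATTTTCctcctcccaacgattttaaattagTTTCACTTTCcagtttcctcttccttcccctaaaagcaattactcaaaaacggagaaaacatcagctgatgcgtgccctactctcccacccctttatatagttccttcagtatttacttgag
IFIT1, chr10:89392453-89392622, plus strand: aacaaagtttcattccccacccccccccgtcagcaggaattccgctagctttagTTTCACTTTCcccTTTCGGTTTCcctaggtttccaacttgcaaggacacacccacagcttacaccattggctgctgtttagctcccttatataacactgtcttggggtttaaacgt
IFI44L, chr1:78620278-78620447, plus strand: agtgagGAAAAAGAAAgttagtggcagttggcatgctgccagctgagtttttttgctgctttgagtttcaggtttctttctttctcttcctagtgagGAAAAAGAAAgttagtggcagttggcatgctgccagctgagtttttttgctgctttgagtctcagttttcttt
IFI6, chr1:27672193-27672362, minus strand: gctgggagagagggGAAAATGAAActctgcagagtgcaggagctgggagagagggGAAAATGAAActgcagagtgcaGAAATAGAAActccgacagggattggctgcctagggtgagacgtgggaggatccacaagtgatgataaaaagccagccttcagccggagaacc
The matches begin 156 and 122 bases before the start of IFIT3, 116 and 103 before IFIT1, 164 and 73 before IFI44L, and 156, 115 and 93 before IFI6. A match is a description of letters, not a binding site. Effectors that passed the test held it no more often than those that did not: 5 of the 8 windows of effectors that rose had a match (62.5%) and 19 of the 28 others (67.9%). Outside the list, 2 of 100 windows of genes that rose (2%) had a match, those of CXCL10 and DDX60, and 7 of 124 windows of genes that fell (5.65%).

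Of the 43 interferon-induced effectors measured, 10 rose with WT-HER2 (23.3%, against 0.777% of all genes) and 1, SAMD9, fell. The median difference over the list was 0.25 log2, and 35 of 43 differences were positive, against a median of 0.01 over all genes. Among the 2′-5′ oligoadenylate synthetase family, OASL, whose product lacks the enzyme activity and binds RIG-I, had levels of 4.76, 4.67 and 4.63 in control and 6.13, 6.32 and 5.98 in WT-HER2 arrays and rose 2.75-fold (1.46 log2, SE 0.10, adjusted p = 0.000199). OAS2, an enzyme whose product activates RNase L, was at 3.83, 3.78 and 3.95 in control and 4.58, 4.69 and 4.34 in WT-HER2 arrays (0.68 log2, adjusted p = 0.0111). OAS1 rose by 0.60 (adjusted p = 0.0444). For each of the 3 the lowest WT-HER2 array lay above the highest control array. Groups did not overlap in any of the 309 called genes, nor in 14% of all genes.

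The IFIT proteins bind foreign or uncapped RNA. IFIT3 was measured at 5.06, 5.44 and 5.22 in control and 6.54, 6.56 and 6.28 in WT-HER2 arrays and rose 2.33-fold (1.22 log2, SE 0.13, adjusted p = 0.00155). IFIT1 was at 6.36, 6.49 and 6.58 against 8.04, 7.86 and 7.27 and rose 2.37-fold (1.25 log2, SE 0.19, adjusted p = 0.0109). The third member, IFIT2, had a difference of 1.02 that just missed the threshold (adjusted p = 0.0548), with levels of 6.39, 6.72 and 6.71 in control and 7.80, 7.94 and 7.14 in WT-HER2 arrays. So did IFI44, a relative of IFI44L, at 4.76, 5.60 and 5.80 against 7.31, 6.68 and 6.28 (difference 1.37, adjusted p = 0.0631), and HERC5, the ligase that attaches ISG15, at 3.88, 3.96 and 4.11 against 5.60, 5.57 and 4.53 (difference 1.25, adjusted p = 0.0751). In all of these genes WT-HER2 replicate 3 was the lowest of its group. IFI44L, an interferon-induced gene of the cytoplasm, was at 4.80, 5.21 and 5.57 in control and 6.70, 6.76 and 6.17 in WT-HER2 arrays and rose 2.56-fold (1.35 log2, SE 0.20, adjusted p = 0.0107). RSAD2, which encodes viperin, an enzyme that makes a chain-terminating nucleotide, was at 3.85, 4.01 and 4.17 against 5.55, 5.57 and 4.72 (1.27 log2, adjusted p = 0.019). The membrane protein IFITM1, which hinders virus entry, rose by 0.66, the mitochondrial protein IFI6 by 0.77 and IFI35 by 0.37. SAMD9, an antiviral factor that restricts translation, went the other way, from 8.03, 8.17 and 8.17 in control to 7.61, 7.53 and 7.09 in WT-HER2 arrays (−0.71 log2, adjusted p = 0.0355). Several textbook members of the list did not pass: ISG15 (control mean 4.77, WT-HER2 mean 5.20, difference 0.42, adjusted p = 0.305), a ubiquitin-like modifier, and MX1, whose mean was 2.98 in control and 2.96 in WT-HER2 arrays, under the background bound.

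In all 10 effectors that rose, WT-HER2 replicate 3 had the lowest level of its group. Across the array it was the lowest in 80 of the 143 genes that rose, and in 39.3% of all genes. The count of effectors that rose was 6, 2 and 5 without control replicates 1, 2 and 3 and 4, 5 and 13 without WT-HER2 replicates 1, 2 and 3. OASL and IFIT3 passed in all 6 of those fits. IFI44L lost its call with control array 2, or WT-HER2 array 1 or 2, left out (adjusted p of 0.0543 to 0.057), IFIT1 with control array 2, or WT-HER2 array 2, left out (adjusted p of 0.0582 to 0.0587), OAS2 with control array 2, or WT-HER2 array 1, left out (adjusted p of 0.0554 to 0.0651), IFITM1 with control array 2 or 3, or WT-HER2 array 1, left out (adjusted p of 0.0531 to 0.087), RSAD2 with control array 1, 2 or 3, or WT-HER2 array 1 or 2, left out (adjusted p of 0.0601 to 0.0873), IFI6 with control array 1, 2 or 3, or WT-HER2 array 2, left out (adjusted p of 0.057 to 0.0809), OAS1 with control array 1, 2 or 3, or WT-HER2 array 1 or 2, left out (adjusted p of 0.0786 to 0.199), IFI35 with control array 1, 2 or 3, or WT-HER2 array 1 or 2, left out (adjusted p of 0.0738 to 0.146) and SAMD9 with control array 1, 2 or 3, or WT-HER2 array 2, left out (adjusted p of 0.0613 to 0.153). Without control replicate 1 and WT-HER2 replicate 3 together, 14 effectors rose and 1 fell, with a median of 0.31, and IFIT2, HERC5 and IFI44 passed (adjusted p = 0.0208, 0.0201 and 0.0281). With the control and WT-HER2 arrays fitted alone, 2 rose.

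Upstream of these effectors, 3 of 26 genes of nucleic-acid sensing and interferon signalling rose (11.5%, against 0.777% of all genes) and none fell, with a median of 0.12. RIGI, the cytoplasmic RNA sensor, was at 5.34, 5.79 and 5.68 in control and 6.99, 6.89 and 6.36 in WT-HER2 arrays and rose 2.21-fold (1.14 log2, SE 0.17, adjusted p = 0.0105). STING1, the adaptor of DNA sensing, rose by 0.54 (adjusted p = 0.0187), and IRF9, the DNA-binding subunit of the interferon-activated factor ISGF3, by 0.35 (adjusted p = 0.0383). IFIH1 (control mean 5.56, WT-HER2 mean 6.12, difference 0.56, adjusted p = 0.426), which encodes the RNA sensor MDA5, did not pass. RIGI lost its call with WT-HER2 array 2 left out (adjusted p = 0.0543), STING1 with control array 3, or WT-HER2 array 1 or 2, left out (adjusted p of 0.0759 to 0.0817) and IRF9 with control array 1, 2 or 3, or WT-HER2 array 1 or 2, left out (adjusted p of 0.078 to 0.159). In this list 3 rose and 1 fell without control replicate 1 and WT-HER2 replicate 3, and IRF9 then had adjusted p = 0.0697. The count of sensing and signalling genes that rose was 2, 2 and 1 without control replicates 1, 2 and 3 and 1, 0 and 4 without WT-HER2 replicates 1, 2 and 3, and 0 with the control and WT-HER2 arrays fitted alone. No interferon gene passed with limma among 10 measured, 0 had an unadjusted p below 0.05, and 7 of the 10 lay under the background bound in both groups. IFNB1, the interferon that epithelial cells make first on virus infection, had means of 2.11 in control and 2.13 in WT-HER2 arrays.

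Of 17 chemokines 1 rose and 1 fell (5.88% each, against 0.777% and 0.902% of all genes), and of 13 genes of antigen processing and presentation 1 fell (7.69%). These counts were the same without control replicate 1 and WT-HER2 replicate 3. CXCL10, a chemokine that draws T cells and is induced by interferon, had the largest increase of all genes. Its control levels of 3.01, 3.22 and 2.93 straddled the background bound, its WT-HER2 levels were 4.93, 5.19 and 4.41, and it rose 3.46-fold (1.79 log2, SE 0.17, adjusted p = 0.00104); as its control mean lay under the bound, the size of the fold is uncertain. CCL28, an epithelial chemokine of mucosal surfaces, fell by 1.28 (adjusted p = 0.0187). UBD, a ubiquitin-like modifier induced by interferon-γ and tumour necrosis factor, was at 4.81, 5.82 and 5.60 in control and 3.04, 3.12 and 3.87 in WT-HER2 arrays and fell 4.20-fold (−2.07 log2, SE 0.30, adjusted p = 0.00993). UBD lost its call with control array 2 or 3, or WT-HER2 array 2, left out (adjusted p of 0.0519 to 0.0576), and CCL28 with control array 2 or 3, or WT-HER2 array 1, 2 or 3, left out (adjusted p of 0.0626 to 0.0962). Of 20 NF-κB feedback and cytokine genes 3 rose (15%) and 1 fell (5%), with a median of 0.22. The mitochondrial superoxide dismutase SOD2 went from 9.44, 9.59 and 9.65 to 10.50, 10.28 and 10.22 and rose 1.71-fold (0.78 log2, SE 0.10, adjusted p = 0.00552). The adhesion molecule ICAM1 rose by 0.40 and the NF-κB inhibitor NFKBIA by 0.44. LCN2, an iron-sequestering antimicrobial protein, went from 6.07, 6.30 and 6.36 to 5.46, 5.46 and 5.50 and fell by 0.77. SOD2 and LCN2 passed without each array in turn, ICAM1 lost its call with control array 2 or 3, or WT-HER2 array 1 or 2, left out (adjusted p of 0.0582 to 0.0652) and NFKBIA with control array 1, 2 or 3, or WT-HER2 array 1 or 2, left out (adjusted p of 0.0559 to 0.11), and in this list 4 rose and 1 fell without control replicate 1 and WT-HER2 replicate 3. Of 5 blood and immune markers measured, CD68, a macrophage marker that other cells also express, rose from 6.23, 6.04 and 6.04 to 6.66, 6.87 and 7.06 and lost its call with control array 2 or 3 left out (adjusted p of 0.0513 to 0.0519), and the monocyte marker CD14 was at 8.02, 8.03 and 8.06 against 8.26, 8.30 and 8.27, higher in each WT-HER2 array but short of the threshold (difference 0.24, adjusted p = 0.261). ITGAM had means of 3.34 and 3.31, and the leukocyte marker PTPRC and the T cell marker CD3E lay under the background bound, as did all 5 endothelial markers. The mean of the 5 immune markers was 4.48 to 4.62 in control and 4.67 to 4.75 in WT-HER2 arrays, and their part in the interferon changes was not tested.

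Genes of squamous differentiation, among them KRT10, PI3 and S100A8, made up several of the largest decreases. In stratified epithelium, cells leaving the basal layer change keratins, seal themselves with desmosomes and build a cornified envelope, and stressed or activated keratinocytes secrete protease inhibitors and S100 proteins. Of 21 keratins measured, 3 fell (14.3%, against 0.902% of all genes) and 1 rose, with a list median of −0.01 that was 0.04 without control replicate 1. KRT10, the keratin of suprabasal cells, showed the largest change of any gene: 8.03, 8.19 and 8.10 in control and 5.97, 6.0 and 5.58 in WT-HER2 arrays. It fell 4.79-fold (−2.26 log2, SE 0.16, adjusted p = 0.000262). KRT16, a keratin of activated keratinocytes, was at 6.69, 6.43 and 6.36 in control and 5.10, 5.21 and 5.29 in WT-HER2 arrays and fell 2.45-fold (−1.29 log2, SE 0.10, adjusted p = 0.000333). The abundant basal keratin KRT14 was at 10.13, 10.12 and 10.11 against 9.34, 9.40 and 9.58 and fell 1.60-fold (−0.68 log2, SE 0.075, adjusted p = 0.00234). As for every called gene, the groups did not overlap for any of the 3, and all 3 passed without each array in turn. KRT18, a keratin of simple and luminal epithelium, rose by 0.34 (adjusted p = 0.0377) but passed neither without control replicate 1 and WT-HER2 replicate 3, where the same 3 keratins fell and none rose, nor in any of the fits that left out 1 array (adjusted p up to 0.156). Wherever KRT18 is named here, its value comes from cluster 8154725. That number lies close to the cluster of the interferon gene IFNK on chromosome 9 (8154721), while KRT18 is on chromosome 12. Whether the cluster reads KRT18 alone was not tested. KRT5, the partner of KRT14, had means of 11.82 and 11.77 and did not pass (adjusted p = 0.821). KRT15 (control mean 11.73, WT-HER2 mean 11.43, difference −0.29, adjusted p = 0.197), another basal keratin, did not pass either. The array cannot separate close paralogs among keratins with certainty. KRT6A, KRT6B, KRT6C, KRT17 and KRT81 were listed too but had no transcript cluster of their own and were not measured.

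Of 43 genes of the cornified envelope and late differentiation, 7 fell (16.3%, against 0.902% of all genes) and none rose. The list median was −0.06, and 15 members lay under the background bound in both groups. PI3, which encodes the elastase inhibitor elafin, was at 7.69, 7.57 and 7.89 in control and 5.77, 5.57 and 5.95 in WT-HER2 arrays and fell 3.88-fold (−1.95 log2, SE 0.11, adjusted p = 0.000199). ABCA12, the lipid transporter of lamellar granules, was at 7.69, 7.83 and 7.94 against 6.83, 6.84 and 6.84 and fell 1.98-fold (−0.98 log2, SE 0.075, adjusted p = 0.000325). SLPI, another secreted protease inhibitor, fell by 0.68, from 10.03, 10.02 and 10.11 to 9.46, 9.30 and 9.36. These 3 passed without each array in turn. The transcription factors of terminal differentiation GRHL3 and ZNF750 fell by 0.65 and 0.91, the desmosomal cadherin DSC2 by 0.56 and the envelope protein SPRR1B by 0.94. GRHL3 lost its call with control array 3 left out (adjusted p = 0.0512), ZNF750 with control array 2 or 3, or WT-HER2 array 1 or 3, left out (adjusted p of 0.0689 to 0.112), DSC2 with control array 2 or 3, or WT-HER2 array 1, left out (adjusted p of 0.0569 to 0.0826) and SPRR1B with control array 1, 2 or 3, or WT-HER2 array 1 or 2, left out (adjusted p of 0.0506 to 0.146). TGM1 (control mean 6.78, WT-HER2 mean 6.46, difference −0.32, adjusted p = 0.0929), the cross-linking enzyme of the envelope, did not pass, and neither did its substrate IVL (control mean 3.07, WT-HER2 mean 3.23, difference 0.16, adjusted p = 0.689). The count of genes of this list that fell was 6, 4 and 3 without control replicates 1, 2 and 3 and 4, 6 and 6 without WT-HER2 replicates 1, 2 and 3, and 7, with 1 that rose, without control replicate 1 and WT-HER2 replicate 3.

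Of 19 S100 genes 3 fell (15.8%, against 0.902% of all genes) and none rose. S100A8, one chain of the antimicrobial protein calprotectin, was at 5.86, 5.93 and 5.92 in control and 4.29, 4.52 and 3.79 in WT-HER2 arrays and fell 3.26-fold (−1.71 log2, SE 0.16, adjusted p = 0.000927). Its partner chain S100A9 was at 5.60, 5.51 and 5.60 against 4.56, 4.67 and 4.50 (−0.99 log2, adjusted p = 0.015), and S100A7, or psoriasin, at 3.81, 4.37 and 4.35 against 3.18, 2.60 and 3.21 (−1.18 log2, adjusted p = 0.0233); the WT-HER2 mean of S100A7, 3.00, lay under the background bound, so the size of its difference is uncertain. S100A8 passed without each array in turn. S100A9 lost its call with control array 2 or 3, or WT-HER2 array 1 or 2, left out (adjusted p of 0.0527 to 0.0724) and S100A7 with control array 2 or 3, or WT-HER2 array 1 or 2, left out (adjusted p of 0.0569 to 0.117), and 2 S100 genes fell without control replicate 1 and WT-HER2 replicate 3, with S100A9 at adjusted p = 0.0912. The count that fell was 3, 1 and 1 without control replicates 1, 2 and 3 and 1, 1 and 3 without WT-HER2 replicates 1, 2 and 3. Clade B serpins, intracellular inhibitors of proteases, showed 3 decreases among 11 members (27.3%) and no increase, with a median of −0.18. SERPINB7 was at 3.71, 3.92 and 4.25 in control and 2.3, 2.42 and 2.72 in WT-HER2 arrays, all 3 under the background bound, so the size of its fall is uncertain (−1.48 log2, SE 0.15, adjusted p = 0.00152). SERPINB13 fell by 0.80. SERPINB3 passed the test as lower (adjusted p = 0.0255), but its means of 3.11 in control and 2.34 in WT-HER2 arrays both lay under the background bound, so the size of its decrease is uncertain, and its near-identical neighbour SERPINB4 may not be told apart on the array. Without control replicate 1 and WT-HER2 replicate 3, 2 clade B serpins fell, and the count was 2, 1 and 1 without control replicates 1, 2 and 3 and 2, 2 and 2 without WT-HER2 replicates 1, 2 and 3. SERPINB13 lost its call with control array 2 or 3, or WT-HER2 array 2, left out (adjusted p of 0.0514 to 0.062) and SERPINB3 with control array 1, 2 or 3, or WT-HER2 array 1 or 3, left out (adjusted p of 0.057 to 0.101). Of 10 kallikreins, the proteases that shed the outer layer, KLK7 fell by 0.88 (adjusted p = 0.0116) and lost its call with WT-HER2 array 1 or 2 left out (adjusted p of 0.0514 to 0.055).

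Of 33 genes of epithelial junctions 6 fell (18.2%, against 0.902% of all genes), none rose and 27 did not pass, with a median of −0.10. DSG3, the desmosomal cadherin of basal layers, was at 10.50, 10.57 and 10.59 in control and 9.84, 9.79 and 9.76 in WT-HER2 arrays and fell 1.69-fold (−0.76 log2, SE 0.078, adjusted p = 0.00152). Other desmosomal genes fell less, DSP by 0.40, PERP by 0.39 and DSC3 by 0.57. The tight-junction claudin CLDN7 fell by 0.44, and CDH1, which encodes E-cadherin, by 0.33 (adjusted p = 0.0498). DSG3 passed in all 6 fits that left out 1 array. DSP lost its call with control array 2 or 3, or WT-HER2 array 1, 2 or 3, left out (adjusted p of 0.0675 to 0.12), PERP with any 1 of the 6 arrays left out (adjusted p of 0.0559 to 0.133), DSC3 with control array 2 or 3, or WT-HER2 array 1, 2 or 3, left out (adjusted p of 0.0849 to 0.186), CLDN7 with control array 3, or WT-HER2 array 1 or 2, left out (adjusted p of 0.0506 to 0.0606) and CDH1 with control array 2 or 3, or WT-HER2 array 1, 2 or 3, left out (adjusted p of 0.113 to 0.203). The count of junction genes that fell was 5, 2 and 1 without control replicates 1, 2 and 3 and 2, 1 and 2 without WT-HER2 replicates 1, 2 and 3, and 5 without control replicate 1 and WT-HER2 replicate 3. Among 16 basal markers KRT14 and MME, a cell-surface peptidase of myoepithelial cells, fell (12.5%), as they did without control replicate 1 and WT-HER2 replicate 3; MME was at 7.35, 7.25 and 7.39 in control and 6.49, 6.37 and 6.33 in WT-HER2 arrays and fell 1.91-fold (−0.93 log2, SE 0.093, adjusted p = 0.00142). Among 20 luminal genes, 10.0% in each direction passed: 2 rose (the secretory factor XBP1 by 0.52, and KRT18) and 2 fell. The fall of the apical mucin MUC1 was from 8.49, 8.46 and 8.65 to 7.78, 7.55 and 7.60 (−0.88 log2, adjusted p = 0.00272). CD24, a surface glycoprotein of luminal cells, was at 8.94, 9.51 and 9.39 against 8.41, 8.16 and 7.60 (−1.22 log2, adjusted p = 0.0388) and lost its call with control array 2 or 3, or WT-HER2 array 1, 2 or 3, left out (adjusted p of 0.0515 to 0.182), as did XBP1 with control array 1, 2 or 3, or WT-HER2 array 1 or 2, left out (adjusted p of 0.0597 to 0.0921). The 5 luminal markers KRT8, KRT19, GATA3, FOXA1 and ESR1 had a mean of 5.65 to 5.81 in control and 5.65 to 5.90 in WT-HER2 arrays, and none of them passed the test.

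**Figure D2:**
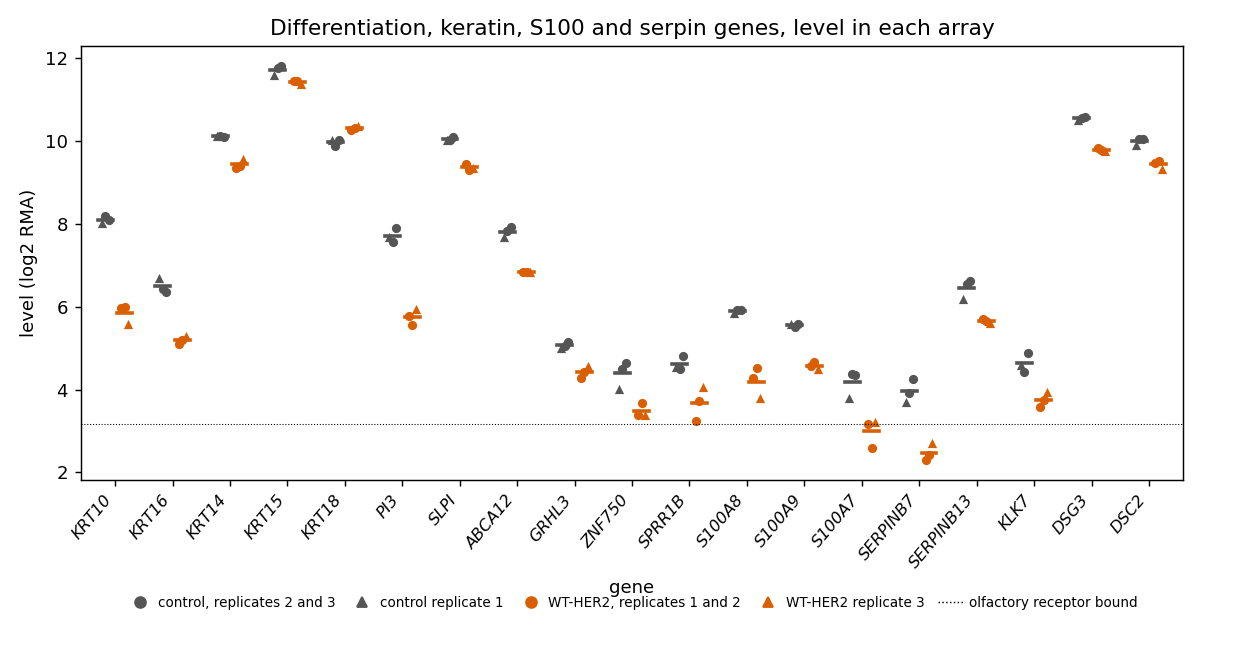
Log2 level of keratin, late-differentiation, S100, serpin and desmosomal genes in each array, drawn as in the plot of interferon-linked genes. KRT18 is the gene in which the WT-HER2 arrays lie above control; in the others they lie below it, and the 3 WT-HER2 arrays of SERPINB7 lie under the background bound.

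Some genes of basement membrane and matrix rose with WT-HER2, among them COL4A1 and COL4A2, while most of their list did not pass the test. Epithelial cells rest on a sheet of type IV collagen and laminin, which lysyl oxidases cross-link and metalloproteases cleave. Of 45 such genes 9 rose (20.0%, against 0.777% of all genes), 1 fell and 35 did not pass, with a median of 0.07. The 45 include LAMA4 in place of the listed LAMA3, which had no transcript cluster of its own. Among the collagens, COL4A2 went from 5.26, 5.31 and 5.34 to 6.04, 6.06 and 6.14 (0.78 log2, adjusted p = 0.000738) and COL4A1 from 4.69, 4.62 and 4.51 to 5.18 in each WT-HER2 array, values identical as deposited (0.57 log2, adjusted p = 0.00681). The 2 genes lie head to head and share a promoter. THBS1, a matricellular protein that activates TGF-β, was at 8.13, 8.41 and 8.33 in control and 9.26, 9.32 and 9.17 in WT-HER2 arrays and rose 1.95-fold (0.96 log2, SE 0.084, adjusted p = 0.000738). LOX, a collagen cross-linking oxidase, was at 6.50, 6.69 and 6.90 against 7.89, 7.76 and 7.63 and rose 2.09-fold (1.06 log2, SE 0.11, adjusted p = 0.00149). The large proteoglycan gene VCAN was at 4.20, 4.36 and 4.44 against 5.55, 5.98 and 5.23 and rose 2.39-fold (1.26 log2, SE 0.16, adjusted p = 0.00589). As in all 309 called genes, the groups did not overlap: in each of these genes all 3 WT-HER2 arrays exceeded all 3 controls.

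Proteases and their inhibitors within the list were also among the increases. TIMP1, a secreted inhibitor of metalloproteases, differed little between the arrays of a group, at 10.57, 10.65 and 10.66 in control and 11.37, 11.38 and 11.37 in WT-HER2 arrays, and rose 1.68-fold (0.75 log2, SE 0.067, adjusted p = 0.000763). SERPINE2, an inhibitor of thrombin and plasminogen activators, was at 3.41, 3.52 and 3.91 against 4.82, 4.82 and 4.67 and rose 2.23-fold (1.16 log2, SE 0.13, adjusted p = 0.00245). MMP2, a gelatinase that cleaves type IV collagen, went from 5.55, 5.73 and 5.72 to 6.49, 6.54 and 6.24 (0.76 log2, adjusted p = 0.00692). MMP13, a collagenase, was the decrease, from 4.51, 5.10 and 4.81 to 3.78, 3.81 and 3.77 (−1.02 log2, adjusted p = 0.00899), and lost its call with control array 3 left out (adjusted p = 0.0502). The laminin chain LAMB3 rose by 0.38 (adjusted p = 0.0448) and passed in none of the 6 fits that left out 1 array. The count of matrix genes that rose was 8 in all 6 of those fits, 8 without control replicate 1 and WT-HER2 replicate 3, and 7 with the control and WT-HER2 arrays fitted alone. Fibroblasts express many of these genes. Of 7 fibroblast markers 1 rose: DCN, which encodes decorin, from 7.19, 7.17 and 7.09 to 7.81, 7.80 and 7.58 (0.58 log2, adjusted p = 0.0179), losing its call with control array 2 or 3, or WT-HER2 array 1 or 2, left out (adjusted p of 0.0758 to 0.0849). PDGFRA and LUM were under the background bound, and the mean of the 7 markers was 3.93 to 4.21 in control and 4.10 to 4.24 in WT-HER2 arrays; their part in the matrix changes was not tested.

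Integrins, the receptors for matrix, showed 3 increases among 19 measured (15.8%, against 0.777% of all genes) and no decrease. The count was 2 in each of the 6 fits that left out 1 array and 2 without control replicate 1 and WT-HER2 replicate 3. ITGA10, a collagen-binding chain, was at 4.85, 4.60 and 4.72 in control and 5.85, 5.92 and 5.60 in WT-HER2 arrays and rose 2.09-fold (1.07 log2, SE 0.10, adjusted p = 0.00104). ITGA5, the fibronectin-receptor chain, was at 6.97, 7.02 and 7.01 against 7.63, 7.65 and 7.58 and rose 1.53-fold (0.62 log2, SE 0.067, adjusted p = 0.00205). ITGB5 rose by 0.35 (adjusted p = 0.0418) and passed in none of the 6 fits that left out 1 array, while ITGA10 and ITGA5 passed in all of them. Of 30 mesenchymal genes 2 rose (6.67%), with a median of 0.09: the transcription factor TWIST1 by 0.43 (adjusted p = 0.0413) and the intermediate filament gene VIM by 0.42 (adjusted p = 0.0428). The other mesenchymal genes did not pass, 1 rose without control replicate 1 and WT-HER2 replicate 3, and TWIST1 lost its call with control array 1, 2 or 3, or WT-HER2 array 2 or 3, left out (adjusted p of 0.0822 to 0.152) and VIM with control array 1, 2 or 3, or WT-HER2 array 1 or 2, left out (adjusted p of 0.0871 to 0.149).

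Some readouts of the ERK cascade, through which HER2 signals, rose. The list holds feedback inhibitors and other genes that ERK activity induces. Of 30 measured, 6 rose (20.0%, against 0.777% of all genes) and 1 fell, with a median of 0.21. DUSP4, a nuclear phosphatase of ERK, was at 5.66, 5.88 and 5.93 in control and 6.91, 7.01 and 6.85 in WT-HER2 arrays and rose 2.15-fold (1.10 log2, SE 0.10, adjusted p = 0.00076). SPRED2, an inhibitor of RAS activation, was at 4.69, 4.95 and 4.97 against 5.48, 5.46 and 5.43 and rose 1.50-fold (0.59 log2, SE 0.083, adjusted p = 0.00899), and its relative SPRED1 rose by 0.41. EPHA2, an Eph receptor induced by ERK, was at 6.20, 5.96 and 6.13 against 6.72, 6.72 and 6.62 and rose 1.51-fold (0.59 log2, SE 0.077, adjusted p = 0.006). IER3 rose by 0.62 and PHLDA1 by 0.49. DUSP4, SPRED2 and EPHA2 passed without each array in turn. IER3 lost its call with control array 3 left out (adjusted p = 0.0576), SPRED1 with control array 1, 2 or 3, or WT-HER2 array 1 or 2, left out (adjusted p of 0.0613 to 0.113) and PHLDA1 with control array 2 or 3, or WT-HER2 array 1, 2 or 3, left out (adjusted p of 0.0562 to 0.0998). Other feedback genes of this list did not pass, among them DUSP6 (control mean 5.25, WT-HER2 mean 5.70, difference 0.45, adjusted p = 0.142), the cytoplasmic ERK phosphatase, and SPRY4 (control mean 3.22, WT-HER2 mean 3.53, difference 0.30, adjusted p = 0.484), a Sprouty inhibitor. The count that rose was 6, 4 and 3 without control replicates 1, 2 and 3 and 4, 4 and 5 without WT-HER2 replicates 1, 2 and 3, 5 without control replicate 1 and WT-HER2 replicate 3, and 3 with the control and WT-HER2 arrays fitted alone.

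EPHA4, placed in the same list, was its decrease and one of the 5 largest decreases of all. It encodes an Eph receptor that binds ephrins of both classes, and stood at 6.52, 6.55 and 6.77 in control and 4.78, 4.57 and 4.89 in WT-HER2 arrays. It fell 3.65-fold (−1.87 log2, SE 0.12, adjusted p = 0.000199) and passed without each array in turn. Among 21 Eph receptors and ephrins, EPHA2 rose (4.76%), and EPHA4 and the ligand EFNB2 fell (9.52%), the same counts as without control replicate 1 and WT-HER2 replicate 3. EFNB2 went from 6.50, 6.72 and 6.77 to 6.19, 5.98 and 5.63 (−0.73 log2, adjusted p = 0.0333), a call lost with control array 2 or 3, or WT-HER2 array 2 or 3, left out (adjusted p of 0.0509 to 0.151). Of 22 immediate-early genes, IER3 rose (4.55%, against 0.777% of all genes) and EGR3 fell (4.55%, against 0.902%). EGR3 fell by 0.38 (adjusted p = 0.0415) and lost its call with any 1 of the 6 arrays left out (adjusted p of 0.0504 to 0.182). None of the list passed without control replicate 1 and WT-HER2 replicate 3. DUSP1, a phosphatase gene related to DUSP4, was in neither this list nor the ERK list and was picked after its value was seen. It passed the test as higher, by 0.84.

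**Figure D3:**
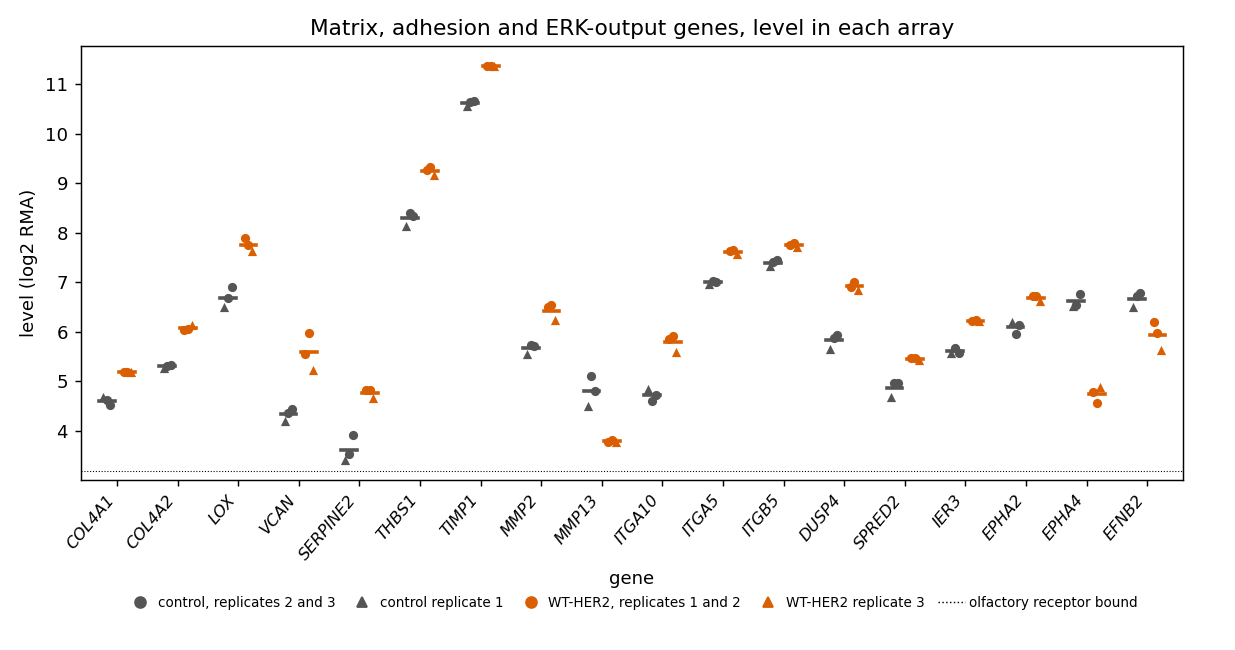
Log2 level of matrix, integrin, ERK-output and Eph genes in each array, drawn as in the plot of interferon-linked genes. No gene has overlapping groups, as holds for all 309 called genes, and MMP13, EPHA4 and EFNB2 are the genes with lower WT-HER2 levels.

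Several of the largest changes lay outside these groups. CPM, a membrane carboxypeptidase, was at 4.99, 4.96 and 4.99 in control and 6.71, 6.97 and 6.43 in WT-HER2 arrays and rose 3.30-fold (1.72 log2, SE 0.15, adjusted p = 0.000738). DEPP1, a gene that FOXO factors induce, was at 6.06, 5.72 and 6.02 against 7.22, 7.40 and 7.24 and rose 2.56-fold (1.36 log2, SE 0.10, adjusted p = 0.000277). It was the one increase among 23 FOXO target genes, which AKT signalling restrains; GADD45A, a stress sensor, fell by 0.40, a call lost with control array 2 or 3, or WT-HER2 array 1 or 2, left out (adjusted p of 0.0748 to 0.0834), and the list median was −0.09. SMOC1, a matricellular protein of basement membranes, went from 6.62, 6.53 and 6.52 to 7.68, 7.63 and 7.70 (1.12 log2, adjusted p = 0.000325). The cationic amino acid transporter SLC7A2 went from 7.38, 7.08 and 7.45 to 8.45, 8.50 and 8.38 (1.14 log2, adjusted p = 0.000729). All of these named increases passed without each array in turn.

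On the side of decreases, CRYAB, a small heat shock protein found in basal-like breast epithelium, was at 5.28, 5.62 and 5.63 in control and 3.53, 3.52 and 3.19 in WT-HER2 arrays and fell 4.29-fold (−2.10 log2, SE 0.12, adjusted p = 0.000199). It was the single call among the 25 heat shock and chaperone genes that had a transcript cluster of their own; clusters that list several genes were not part of this count. CA2, a cytosolic carbonic anhydrase, was at 6.81, 7.02 and 7.09 against 5.58, 5.49 and 5.26 and fell 2.89-fold (−1.53 log2, SE 0.10, adjusted p = 0.000199), whereas its membrane-bound relative CA12 rose by 0.58 (adjusted p = 0.00472). IGFBP5, a secreted binding protein of insulin-like growth factors, was at 5.08, 5.29 and 5.19 against 3.52, 3.79 and 3.79 and fell 2.81-fold (−1.49 log2, SE 0.10, adjusted p = 0.000199). It was the single call among the 17 genes of that axis with a cluster of their own. SCGB1A1, a secretoglobin of mucosal secretions, fell by 1.34, from 5.12, 5.38 and 5.63 to 3.93, 4.02 and 4.17. The synaptotagmin gene SYT14 fell from 6.06, 6.56 and 6.66 to 4.99, 4.99 and 4.50 (−1.60 log2, adjusted p = 0.00202). C1orf74, a gene with no role known for certain, went from 9.08, 9.28 and 9.27 to 7.47, 7.58 and 7.14 and fell 3.52-fold (−1.81 log2, SE 0.12, adjusted p = 0.000199). CRYAB, CA2, CA12, IGFBP5, SCGB1A1, SYT14 and C1orf74 passed in all 6 fits that left out 1 array.

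Lists of growth and metabolism held between 0 and 4 increases each. No gene passed with limma among 32 mitosis genes (8 at an unadjusted p below 0.05) or 17 genes of the G1 phase (2), although 28 of the 32 mitosis genes had a positive difference and their median was 0.11. Of 37 DNA replication genes, 2 rose (5.41%, against 0.777% of all genes), PRIM1 by 0.52 and MCM5 by 0.42, with a median of 0.12. PRIM1 encodes the small primase subunit and MCM5 a subunit of the replicative helicase. Of 23 genes of serine synthesis and the ATF4 stress response, 4 rose (17.4%) and 1 fell: PHGDH, the first enzyme of serine synthesis, went from 6.58, 6.86 and 6.78 to 7.53, 7.66 and 7.35 (0.78 log2, adjusted p = 0.0092), and DDIT4 rose by 0.48, CEBPB by 0.45 and MTHFD2 by 0.66. The amino acid transporter SLC1A4 fell by 0.67. Among 22 NRF2 targets, which answer oxidative stress, 2 rose (9.09%), FTL by 0.55 and AKR1C1 by 0.35, the latter with near-identical paralogs. Of 23 hypoxia genes LOX and P4HA1 rose (8.70%, P4HA1 by 0.59) and the glucose transporter SLC2A1 fell by 0.41. Single genes changed in the lists of sterol synthesis (ACSS2, higher by 0.39), p53 targets (GADD45A) and Notch signalling (the receptor NOTCH1, lower by 0.52). Without control replicate 1 and WT-HER2 replicate 3, increases numbered 3 in the serine and ATF4 list, 1 among NRF2 targets, 2 among hypoxia genes, 1 among DNA replication genes and 0 among mitosis genes. Of the genes named here, PHGDH passed without each array in turn. PRIM1 lost its call with control array 2, or WT-HER2 array 1 or 2, left out (adjusted p of 0.0647 to 0.0655). MCM5 lost its call with control array 1, 2 or 3, or WT-HER2 array 1 or 2, left out (adjusted p of 0.0658 to 0.105). DDIT4 lost its call with control array 3 left out (adjusted p = 0.0565). CEBPB lost its call with any 1 of the 6 arrays left out (adjusted p of 0.0658 to 0.126). MTHFD2 lost its call with control array 2 or 3, or WT-HER2 array 1 or 2, left out (adjusted p of 0.068 to 0.113). SLC1A4 lost its call with any 1 of the 6 arrays left out (adjusted p of 0.0811 to 0.152). FTL lost its call with control array 1, 2 or 3, or WT-HER2 array 1 or 2, left out (adjusted p of 0.0519 to 0.0999). AKR1C1 lost its call with any 1 of the 6 arrays left out (adjusted p of 0.0817 to 0.159). P4HA1 lost its call with WT-HER2 array 1 left out (adjusted p = 0.0605). SLC2A1 lost its call with control array 2 or 3, or WT-HER2 array 1 or 2, left out (adjusted p of 0.0596 to 0.0669). ACSS2 lost its call with control array 2 or 3, or WT-HER2 array 1 or 2, left out (adjusted p of 0.0803 to 0.0939). NOTCH1 lost its call with control array 2 or 3 left out (adjusted p of 0.0519 to 0.052).

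**Figure D4:**
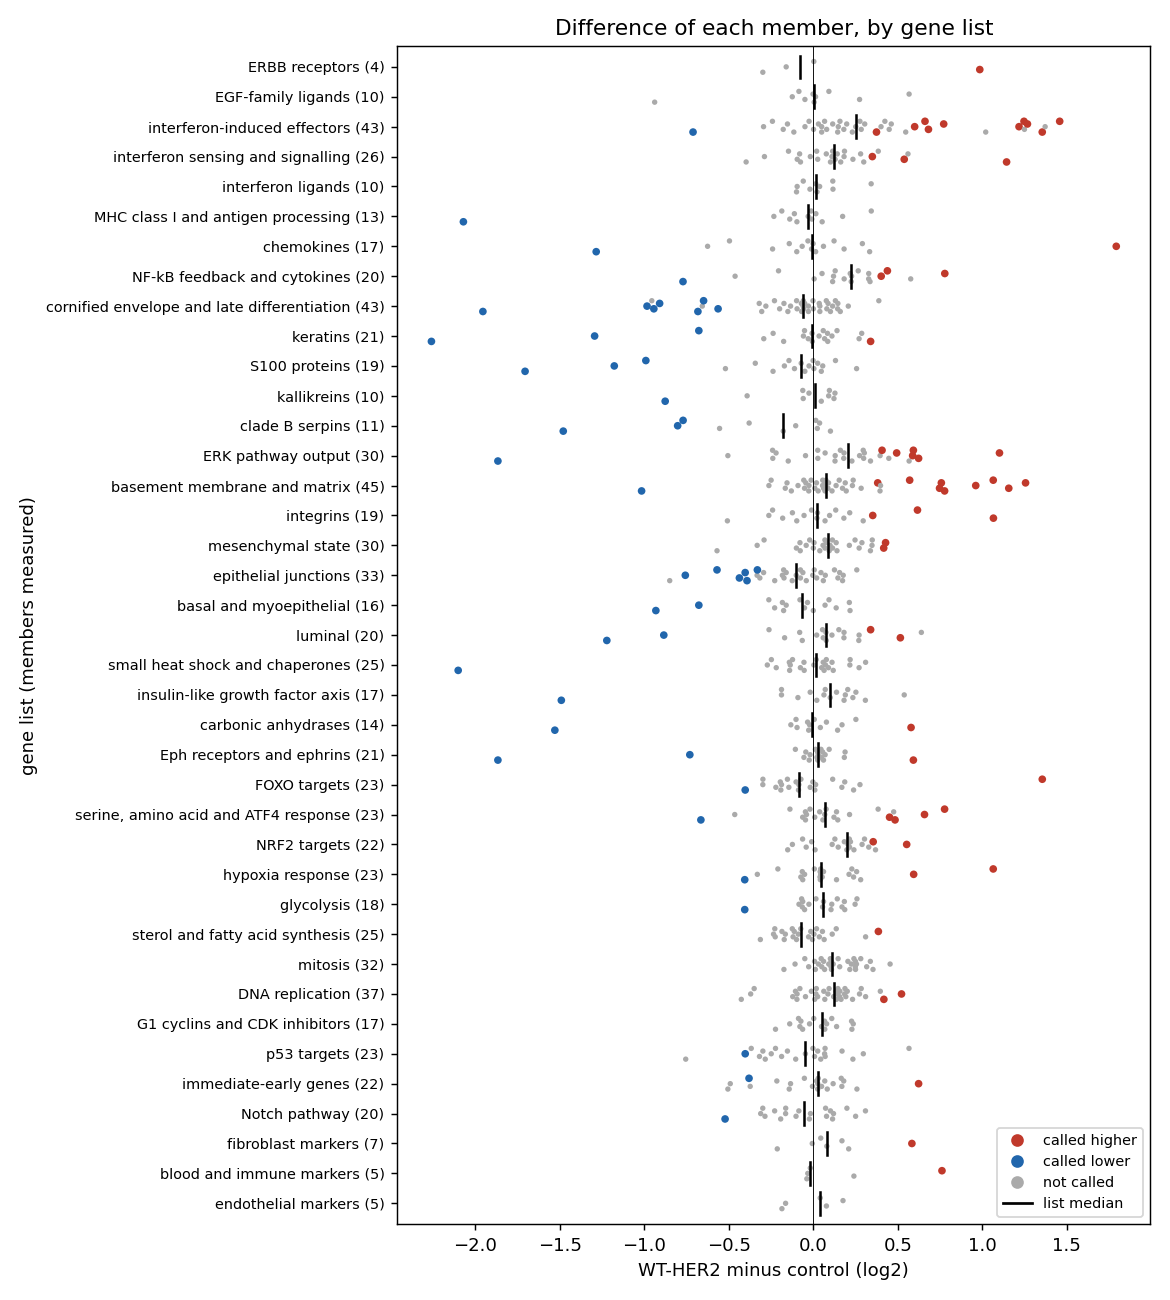
Log2 difference between WT-HER2 and control (x axis) of each measured member of the 39 gene lists (y axis), 1 point per gene, with called genes in colour and the list median as a bar. The interferon effector and matrix lists hold the most increases, 10 and 9, and the list of the cornified envelope the most decreases, 7. No list median is farther from 0 than that of the interferon-induced effectors, at 0.25.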

How the data were processed

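RNA of MCF10A cells was hybridised to Affymetrix whole-transcript arrays, 1 array per sample. The deposited log2 values were made by the authors with RMA (affy package, R 2.14), per the submitters' processing notes, and were used as deposited; the genome build is not given in the sources used here. Of 32321 transcript clusters, 19158 had exactly 1 gene symbol in the array's annotation, 1388 had several and 11775 were not listed. Entrez numbers of 19128 matched RefSeq and 30 did not. The cluster with the highest mean over 9 arrays stood for each gene, which gave 18404 genes (637 had several clusters), without a filter on low values.

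The contrast WT-HER2 minus control was fitted over 9 arrays in R 4.3.3, using limma 3.58.1 and statmod 1.5.0, 1 coefficient per group (residual degrees of freedom 6, prior 3.25). Tests were two-sided, and every adjusted p is limma's with Benjamini-Hochberg adjustment over 18404 genes, called below 0.05. Differences had a median SE of 0.10 log2, and the number of arrays limits the precision; an exact permutation test of 3 against 3 arrays cannot go below p = 0.1. The procedure was tested on simulated data.

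Gene lists (39, with 769 measured genes) are described by counts and medians. Genes were named by a rule: the ERBB receptors, the 15 called genes of largest rise and the 15 of largest fall, without overlap, up to 5 members per list with the smallest p, called members that went against their list, and members of counts of 5 or fewer. Others, among them IFIT2, IFI44, HERC5, ISG15, MX1, IFIH1, DUSP6, SPRY4, TGM1 and IVL, were picked after their values were seen. The comparison, lists and rule were chosen with earlier results of these data known. Promoter windows, matched by Entrez number, are RefSeq's (GRCh38.p14). Alternatives were other scaling, filters, variance estimates, array weights, a replicate block, the control and WT-HER2 arrays alone, stricter thresholds and arrays left out.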

Additional observations from a re-analysis of the deposited data

Results flagged for a closer look

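Signal also changed in transcript clusters that the gene comparison did not use, because they name no gene or several. Fitted with all 32321 clusters, limma called 33 of these 13163 clusters at adjusted p below 0.05 (0.251%), 9 higher and 24 lower with WT-HER2. Among clusters with no gene listed, 23 of 11775 were called (0.195%), and among clusters with several genes 10 of 1388 (0.72%). The largest increase, cluster 7893071, was at 4.47, 4.37 and 4.37 in control and 7.73, 7.31 and 8.21 in WT-HER2 arrays, and the largest decrease, cluster 7893617, at 5.81, 5.23 and 4.86 in control and 2.52, 2.82 and 2.54 in WT-HER2 arrays. Both clusters had no overlap between the groups, and neither names a gene here.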

How the results depend on the processing

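ERBB2 and the called genes named by rule kept their direction under every alternative run for them. List medians near 0 did not: over 10 refits 13 of 39 changed sign, none of them farther from 0 than 0.10 with all arrays or 0.14 after. The keratin median went from −0.01 to 0.04 without control replicate 1, the kallikrein median from 0.01 to −0.14 and that of the insulin-like growth factor axis from 0.10 to −0.01 without WT-HER2 replicate 3. Quantile scaling changed the sign of 4 medians, median centring of 1 and the olfactory covariate of 8. ERBB2 kept its call except where a 2-fold change was required (log2 difference 0.99), and its difference ranged from 0.94 to 1.04 with 1 array left out. The count of 309 genes became 736 with array weights, 134 with the control and WT-HER2 arrays fitted alone, 115 at adjusted p below 0.01 and 47 with a 2-fold change required. It ranged from 126 (without control replicate 3) to 279 (without control replicate 1) with 1 array left out: 129 without control replicate 2, 155, 152 and 236 without WT-HER2 replicates 1, 2 and 3. Decreases outnumbered increases with all arrays (166 to 143), but increases outnumbered decreases without WT-HER2 replicate 3 (135 to 101). Chosen after the data had been seen, the mean level of the olfactory receptor genes as a covariate gave 573 calls (302 higher, 271 lower), and leaving out genes with identical values within a group gave 294. The other scalings, filters and variance estimates gave 225 to 383. Replicate numbers did not pair the arrays: same-numbered control and WT-HER2 arrays deviated with correlations of −0.51, 0.30 and −0.48, and 1 of 9 arrays correlated best with its own number. With the replicate number as a block, 139 genes were called and ERBB2 had adjusted p = 0.00529. Of the 92 genes named by rule that passed, 56 passed with the replicate block, 51 with the control and WT-HER2 arrays fitted alone, 49 at adjusted p below 0.01, 36 with a 2-fold change required, and 51 to 78 with 1 array left out. The cause of these differences was not tested, and some of the fits held fewer arrays. Signal over background limits the low genes: 6 called genes had both means under the bound, and 4844 of 18404 genes lay there.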

Other observations

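Single genes outside the lists included several secreted proteins of the acute phase. They were picked after their values were seen, except SAA2, which was among the 15 largest decreases. SAA2, a serum amyloid A, was at 8.13, 7.94 and 8.14 in control and 6.65, 6.93 and 6.58 in WT-HER2 arrays and fell 2.55-fold (−1.35 log2, SE 0.10, adjusted p = 0.000325); its near-identical neighbour SAA1 fell by 1.09, and the array may not tell them apart. SERPINA3, which encodes α1-antichymotrypsin, went from 9.23, 9.15 and 9.30 to 8.31, 8.30 and 8.21 (−0.96 log2, adjusted p = 0.000326), and CFB, complement factor B, from 8.86, 8.80 and 8.90 to 8.45, 8.44 and 8.32 (−0.45 log2, adjusted p = 0.0373). SAA2 and SERPINA3 passed without each array in turn, SAA1 lost its call with control array 2 or 3, or WT-HER2 array 1, 2 or 3, left out (adjusted p of 0.0718 to 0.145) and CFB with any 1 of the 6 arrays left out (adjusted p of 0.0796 to 0.151). Of 15 cathepsin genes, a family picked after the values were seen, 3 fell and none rose, where 0.902% of all genes fell. Their median was 0.01, and 0 fell without control replicate 1 and WT-HER2 replicate 3. CTSS, CTSK and CTSV fell by 0.52, 0.50 and 0.65; CTSS lost its call with any 1 of the 6 arrays left out (adjusted p of 0.0583 to 0.138), CTSK with control array 1 or 3, or WT-HER2 array 1, 2 or 3, left out (adjusted p of 0.0547 to 0.0995) and CTSV with control array 1, 2 or 3, or WT-HER2 array 1 or 3, left out (adjusted p of 0.118 to 0.168). Of 15 metallothionein genes and pseudogenes, chosen in the same way, 4 rose and none fell, where 0.777% of all genes rose. Their median was 0.29, and 2 of them rose without control replicate 1 and WT-HER2 replicate 3. Their sequences are near-identical, and the array may not tell them apart. MT1E, MT1F, MT1G and the pseudogene MT1JP rose by 0.36, 0.52, 0.46 and 0.43; MT1E lost its call with any 1 of the 6 arrays left out (adjusted p of 0.0749 to 0.114), MT1F with control array 2, or WT-HER2 array 2, left out (adjusted p of 0.0639 to 0.0692), MT1G with control array 2 or 3, or WT-HER2 array 1 or 3, left out (adjusted p of 0.0582 to 0.105) and MT1JP with control array 2 or 3, or WT-HER2 array 1, left out (adjusted p of 0.0634 to 0.0702).

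Called genes that lie next to each other among the measured genes, in RefSeq's order, made 13 pairs, 11 of them in the same direction. They included COL4A1 and COL4A2, KRT14 and KRT16, DSC2 and DSC3, TRAF3IP3 and C1orf74, and PTGFR and IFI44L. Several of these pairs belong to the same gene family. How many pairs would arise by position alone was not worked out, and no cause of the pairing was tested. PTGFR, a prostaglandin receptor, was at 3.39, 3.39 and 3.58 in control and 4.53, 4.39 and 4.29 in WT-HER2 arrays, and TRAF3IP3 at 3.62, 3.75 and 3.98 against 2.66, 2.77 and 2.63. Of 192 small nucleolar RNAs, 4 were lower and 0 higher with WT-HER2, where 0.902% of all genes were lower. Their median was −0.12, and 0 were lower without control replicate 1 and WT-HER2 replicate 3.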
